A study of Mus musculus with 8 samples.

Results

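The 7 solute carrier families that hold most plasma membrane and lysosomal amino acid transporters of the mouse, Slc1, Slc3, Slc6, Slc7, Slc36, Slc38 and Slc43, were examined in the whole uterus with and without a conditional deletion of Foxa2. Members were all gene symbols that begin with one of these family names, an "a" and a number, and the rule used no measured value. Of the 19938 genes with a probe set of their own on the array, 64 were members: 7 of Slc1, 2 of Slc3, 21 of Slc6, 16 of Slc7, 4 of Slc36, 11 of Slc38 and 3 of Slc43. The rule also took in 2 transcripts that carry a transporter's name but are not transporters, Slc6a19os and Slc7a6os, which leaves 62 carriers or carrier subunits. Some of the 62 move substrates other than amino acids, such as the monoamine, creatine and taurine carriers of Slc6.

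Foxa2 encodes a forkhead transcription factor that uterine glands use. The 4 Foxa2-deleted females were PgrCre/+ Foxa2flox/flox, so that Cre came from 1 allele of the progesterone receptor gene Pgr and acted in cells that use that gene. The 4 controls were Pgr+/+ Foxa2+/+, with no floxed allele and no Cre, so that the Pgr genotype and Cre differ between the groups together with Foxa2 and cannot be told apart from it. All 8 females had mated with vasectomised males and were killed on day 3.5 of pseudopregnancy, the plug being day 0.5. The sources used here do not give their ages. Each snap-frozen uterus gave total RNA for 1 array.

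Amino acid transporters work as exchangers, as sodium- or proton-coupled pumps or as facilitators, and a cell's supply depends on several of them at once. Most Slc7 proteins are light chains that reach the membrane only when joined to a heavy chain, either Slc3a2 (CD98) or Slc3a1 (rBAT). In the early pregnant uterus, amino acids serve endometrial growth and the fluid of the lumen, and arginine, leucine and glutamine are known signals for growth of the conceptus.

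Values are log2 intensities after RMA, a procedure that corrects background, scales the arrays and summarises each probe set, so that a difference of 1 is a doubling or halving of signal. Array medians lay between 8.25 and 8.29 in deleted uteri and between 8.29 and 8.32 in controls. The Foxa2 probe set read 8.22, 8.20, 8.21 and 8.21 in deleted replicates 1 to 4, against 8.61, 8.82, 8.74 and 8.73 in control replicates 1 to 4, a difference of -0.52 (SE 0.05, adjusted p = 0.0013, limma). The sources used here do not say whether its probes lie within the floxed stretch. Pgr differed by 0.37 (SE 0.10, adjusted p = 0.043, limma). Its call was lost in 9 of 18 alternatives, with an adjusted p of up to 0.105 (limma) when 1 array was left out. Deleted uteri correlated with each other at 0.9805 to 0.9900 across genes and controls at 0.9961 to 0.9968. The threshold for a call was an adjusted p under 0.05 over all genes (limma, Benjamini-Hochberg), and 2209 genes (11.1%) were called, 898 (4.5%) higher and 1311 (6.58%) lower. This split was 1082 higher and 982 lower with each array centred on its median, 1011 and 939 with quantile scaling, and 960 and 949 with cyclic loess.

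Of the 64 members, 8 rose and 2 fell in Foxa2-deleted uteri, and 54 were not called. The 10 calls make up 15.6% of the members, beside 11.1% of all genes. The risers were the cystine-glutamate exchanger Slc7a11, the large neutral amino acid carrier Slc7a5, the glutamine carrier Slc38a1, the proton-coupled carrier Slc36a2, and Slc6a13, Slc6a12, Slc6a4 and Slc6a9, which carry GABA, betaine, serotonin and glycine. The fallers were both of the Slc7 family, the cationic amino acid carrier Slc7a2 and the neutral amino acid light chain Slc7a8. A change of at least 1.5-fold was called in 4 members, Slc7a11, Slc6a13, Slc7a2 and Slc7a8, beside 3.28% of all genes. The 4 deleted values lay wholly apart from the 4 control values in 17 members, 12 above and 5 below. Over all genes such a gap was found in 21.1%, with 9.55% above and 11.6% below. The median difference over the members was 0.05, beside 0.01 over all genes. All 10 calls kept their direction and their side of the threshold under 3 other scalings of the arrays. Leaving out a control array weighed more: the 8 members called higher became 3, 3 and 2 without control replicate 2, 3 and 4, while both calls of lower members were kept.

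**Figure D1:**
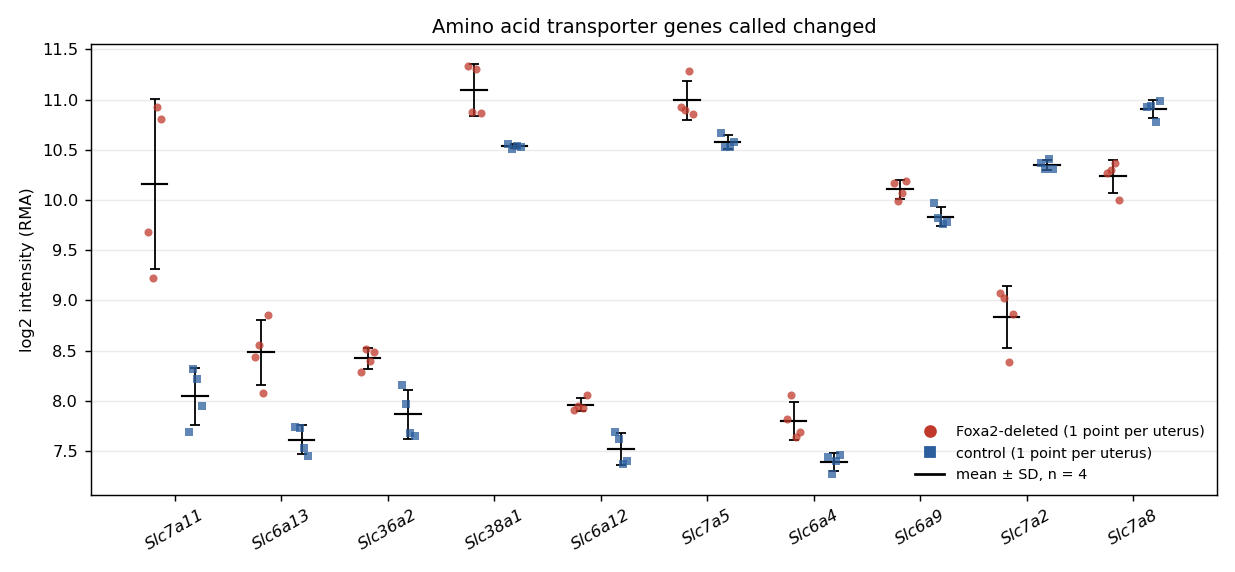
Log2 intensity of the 10 members called changed, with 1 point per uterus, Foxa2-deleted left of control, and mean ± SD (n = 4 each); levels of different genes are not comparable. In 8 genes all deleted points lie above all control points, and in Slc7a2 and Slc7a8 all lie below.

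The Slc7 family held the largest differences in both directions. Slc7a11 (xCT) is the light chain that brings cystine into the cell in exchange for glutamate and so feeds glutathione synthesis. It read 9.68, 9.22, 10.93 and 10.81 in deleted replicates 1 to 4, against 7.69, 8.32, 8.22 and 7.95 in controls. Every deleted uterus lay above every control, with replicates 3 and 4 well above replicates 1 and 2. The difference was 2.12 (SE 0.37, 4.33-fold, adjusted p = 0.0131, limma), and the means were 10.16 ± 0.84 in deleted uteri and 8.05 ± 0.28 in controls (SD, n = 4 each).

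Slc7a2 (CAT2) carries arginine, lysine and ornithine. It read 9.07, 9.02, 8.39 and 8.87 in deleted uteri, against 10.37, 10.31, 10.41 and 10.31 in controls. The controls were nearly equal and all deleted uteri lay more than 1 unit below the lowest of them. The difference was -1.51 (SE 0.13, 2.85-fold lower, adjusted p = 7.9e-04, limma). The other cationic carriers and their relatives were not called. Slc7a1 (CAT1), the carrier of these amino acids in most tissues, read 9.56 to 9.96 in deleted uteri and 9.48 to 9.57 in controls (difference 0.21, SE 0.08, adjusted p = 0.116, limma). Slc7a3, Slc7a4 and Slc7a14 were dim, with mean log2 intensities of 7.31 to 8.21, and had differences of -0.10 to 0.09.

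Slc7a8 (LAT2), a light chain for neutral amino acids of all sizes, read 10.27, 10.30, 10.37 and 10 in deleted uteri, against 10.93, 10.94, 10.78 and 10.99 in controls. The groups did not overlap, and the difference was -0.68 (SE 0.08, 1.60-fold lower, adjusted p = 0.0040, limma). Slc7a5 (LAT1), the light chain for leucine and other large neutral amino acids, differed in the opposite direction. It read 10.93, 10.90, 11.28 and 10.86 in deleted uteri, against 10.67, 10.53, 10.53 and 10.58 in controls. Here too the groups stayed apart, by 0.42 (SE 0.09, 1.33-fold, adjusted p = 0.026, limma). LAT1 and LAT2 share leucine and other substrates, and their transcripts thus moved in opposite directions in the same 4 uteri. The calls of Slc7a11, Slc7a2 and Slc7a8 held with any 1 array left out. That of Slc7a5 missed the threshold when deleted replicate 1 or any of control replicates 2, 3 and 4 was left out (highest adjusted p 0.0811).

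The heavy chain that these light chains need was not called. Slc3a2 read 12, 12.03, 12.18 and 12 in deleted uteri, against 12.11, 12.04, 11.94 and 12.05 in controls, overlapping ranges. The difference was 0.02 (SE 0.06, adjusted p = 0.86, limma). Slc3a1, the partner of the light chains Slc7a9 and Slc7a13, read 7.46 to 7.53 in deleted uteri and 7.58 to 7.66 in controls (difference -0.11, SE 0.04, adjusted p = 0.113, limma). These ranges do not overlap, but the gap is small and both lie in the dim part of the array. Of the other light chains, Slc7a6 and Slc7a7, which exchange cationic for neutral amino acids, differed by -0.11 (SE 0.06, adjusted p = 0.25) and 0.17 (SE 0.11, adjusted p = 0.28). Slc7a9, Slc7a12, Slc7a13 and Slc7a15 were dim and differed by -0.07 to 0.13. Of the 10 light chains listed, 2 rose, 1 fell and 7 were not called (30% called, beside 11.1% of all genes).

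Slc7a10 (Asc-1), a light chain for small neutral amino acids including D-serine, was nearest to a call among these. It read 8.34, 8.92, 8.73 and 8.91 in deleted uteri, against 8.57, 8.18, 7.96 and 7.86 in controls. Deleted replicate 1 fell within the control range. The difference of 0.58 (SE 0.17) had an adjusted p of 0.064 (limma), and it was called without deleted replicate 1 or without control replicate 1 (lowest adjusted p 0.0408).

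The promoter of Slc7a11 is shown because it had the largest rise and because amino acid shortage is known to act on this gene through C/EBP-ATF response elements (CARE), the sites bound by ATF4. The 250 bases before the annotated start (RefSeq, GRCm38.p6, chr3:50443614-50443863, minus strand) were searched on both strands for the CARE core TGATGNAA, the forkhead core TGTTTAC, the AP-1 site TGANTCA and the antioxidant response core TGACNNNGC. Matches are in capitals.
Slc7a11: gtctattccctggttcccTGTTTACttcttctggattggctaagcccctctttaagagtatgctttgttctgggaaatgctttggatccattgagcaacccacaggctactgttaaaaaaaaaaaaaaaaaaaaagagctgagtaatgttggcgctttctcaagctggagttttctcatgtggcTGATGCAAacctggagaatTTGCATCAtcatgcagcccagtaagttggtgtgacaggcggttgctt
The window held 2 CARE cores, TGATGCAA at position -66 and TTGCATCA at position -47 relative to the start, which are inverted copies of each other, and TGTTTAC at position -232. No matches overlapped. The CARE core was found in 3.45% of the 32851 promoter windows of this length and the forkhead core in 3.17%, while 2 or more CARE cores were found in 13 windows (0.0396%), Slc7a11 being the 1 member among them. Among the members, the CARE core was also found in Slc6a21 and Slc7a7 and the forkhead core in Slc36a3, none of them called. Of the 10 called members, 6 had a promoter window, while Slc7a2, Slc7a5, Slc38a1 and Slc36a2 had none. A match is a string of letters and not evidence of binding.

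For comparison, the window of Slc7a8, which fell, held none of the 4 motifs (chr14:54781887-54782136, minus strand, same source).
Slc7a8: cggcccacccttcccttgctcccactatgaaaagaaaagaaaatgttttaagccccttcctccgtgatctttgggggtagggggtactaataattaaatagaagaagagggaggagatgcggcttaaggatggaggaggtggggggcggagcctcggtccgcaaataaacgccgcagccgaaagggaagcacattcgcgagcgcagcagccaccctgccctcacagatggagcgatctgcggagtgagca
Its GC content was 55.6%, against 43.2% for Slc7a11.

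In the Slc6 family, 4 of 21 members rose (4.5% over all genes), none fell (6.58% over all genes) and 17 were not called. This family of sodium- and chloride-coupled carriers includes the reuptake carriers of nerve terminals as well as carriers of betaine, taurine and creatine. Slc6a13 (GAT2), which carries GABA, betaine and taurine, read 8.44, 8.56, 8.08 and 8.86 in deleted uteri, against 7.74, 7.73, 7.53 and 7.45 in controls. All deleted uteri lay above the controls, replicate 3 least so. The difference was 0.87 (SE 0.15, 1.83-fold, adjusted p = 0.0127, limma).

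Slc6a12 (BGT1), the betaine and GABA carrier known from osmotic adaptation of the kidney, is the next gene to Slc6a13 on chromosome 6. It read 7.91, 7.95, 7.93 and 8.06 in deleted uteri, against 7.69, 7.62, 7.37 and 7.40 in controls. The deleted uteri were close together and above all controls, by 0.44 on average (SE 0.08, 1.36-fold, adjusted p = 0.0149, limma). Among the 12 pairs of members that are close neighbours in the order of tested genes, with at most 2 genes between them, this was the 1 pair in which both genes were called. On chromosome 11, Slc36a2 rose beside Slc36a1 and Slc36a3, which were not called. On chromosome 15 Slc38a1 rose beside Slc38a2, which was not called.

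Promoter windows of both neighbours are shown, each before the first of its annotated starts (RefSeq, GRCm38.p6, plus strand, chr6:121300038-121300287 and chr6:121342324-121342573).
Slc6a13: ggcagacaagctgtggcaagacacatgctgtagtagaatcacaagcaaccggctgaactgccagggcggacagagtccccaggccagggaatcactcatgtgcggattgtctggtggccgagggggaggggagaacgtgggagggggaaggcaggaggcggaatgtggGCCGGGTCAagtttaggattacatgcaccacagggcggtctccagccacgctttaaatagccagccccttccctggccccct
Slc6a12: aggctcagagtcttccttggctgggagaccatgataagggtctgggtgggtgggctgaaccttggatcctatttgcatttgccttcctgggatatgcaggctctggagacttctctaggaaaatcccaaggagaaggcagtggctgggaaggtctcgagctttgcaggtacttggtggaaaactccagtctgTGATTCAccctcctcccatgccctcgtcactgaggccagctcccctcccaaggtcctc
They shared no motif of the 4 searched. Slc6a13 held 1 antioxidant response core, GCCGGGTCA, found as a motif in 10.2% of all windows, and Slc6a12 held 1 AP-1 site, TGATTCA, found as a motif in 6.75%.

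Slc6a4 (SERT), the serotonin reuptake carrier, read 7.82, 8.06, 7.64 and 7.69 in deleted uteri, against 7.44, 7.27, 7.40 and 7.46 in controls. The groups did not overlap (difference 0.41, SE 0.09, 1.33-fold, adjusted p = 0.028, limma). Slc6a9 (GlyT1), the glycine carrier, read 10.17, 9.99, 10.07 and 10.19 in deleted uteri, against 9.97, 9.82, 9.76 and 9.78 in controls. This was the smallest of the called differences, 0.27 (SE 0.07, 1.21-fold, adjusted p = 0.034, limma), with the lowest deleted uterus just above the highest control. The call of Slc6a13 held with any 1 array left out, and that of Slc6a12 was lost without control replicate 4 (adjusted p = 0.0514). The calls of Slc6a4 and Slc6a9 were each lost without deleted replicate 1 or any of control replicates 2, 3 and 4, that of Slc6a4 also without control replicate 1 and that of Slc6a9 also without deleted replicate 4 (adjusted p up to 0.0846 and 0.102).

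Slc6a2 (NET), the noradrenaline carrier, showed the largest difference that was not called. It read 7.36, 9.68, 7.71 and 8.71 in deleted uteri, against 9.57, 9.63, 9.52 and 9.51 in controls. Deleted replicate 2 lay above every control, replicates 1 and 3 lay far below, and replicate 4 lay between. The mean difference was -1.19 (SE 0.43, adjusted p = 0.102, limma), and -1.63 without replicate 2 (adjusted p = 0.0076). Slc6a2 and Slc6a4 belong to the same monoamine branch, whose remaining member, the dopamine carrier Slc6a3, read 7.88 to 7.92 in deleted uteri and 7.79 to 7.93 in controls.

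Slc6a15, a sodium-coupled carrier of branched-chain amino acids, read 6.20, 6.92, 6.35 and 7.05 in deleted uteri, against 7.23, 7.15, 6.85 and 7.55 in controls. Replicates 1 and 3 were again the lowest, and the difference of -0.57 (SE 0.21) had an adjusted p of 0.11 (limma). Slc6a14 (ATB0,+), a concentrating carrier of neutral and cationic amino acids in mucosal epithelia, had nearly equal means and the widest spread among deleted uteri of any dim member. It read 7.30, 8.20, 9.25 and 7.71 in deleted uteri, against 7.93, 8.43, 8.47 and 7.64 in controls, so that the deleted uteri spanned a range on both sides of the controls (SD 0.84 in deleted uteri and 0.40 in controls). The taurine carrier Slc6a6 read 10.67 to 11.08 in deleted uteri and 11.08 to 11.14 in controls (difference -0.25, adjusted p = 0.113, limma), and the creatine carrier Slc6a8 differed by 0.05.

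**Figure D2:**
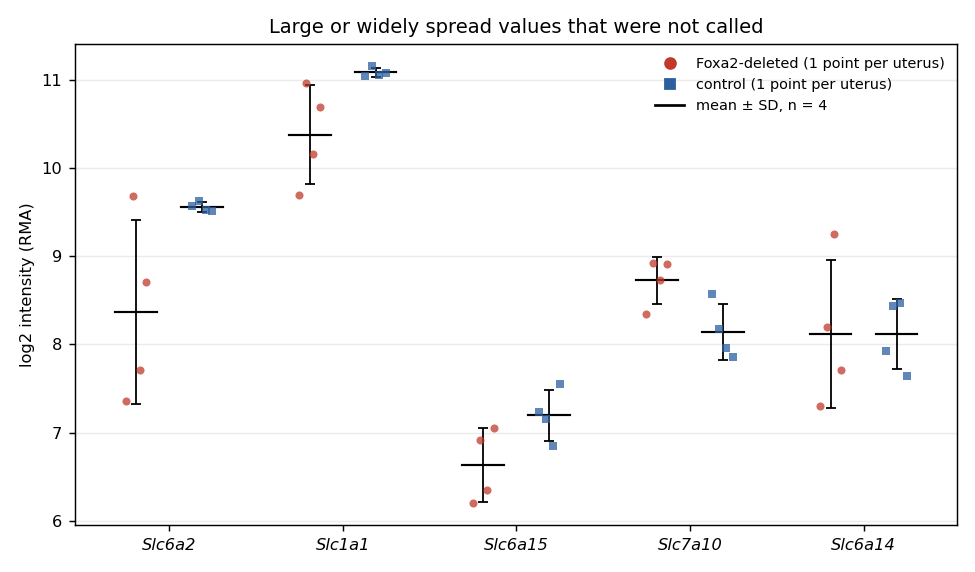
Log2 intensity of the 4 members with a difference of at least 0.5 that were not called, and of Slc6a14, with 1 point per uterus, Foxa2-deleted left of control, and mean ± SD (n = 4 each). The deleted points of Slc6a2 run from 7.36 to 9.68 while its controls lie between 9.51 and 9.63.

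Apart from the bright Slc6a17, with a difference of 0.09, the other Slc6 members were dim. Of the 16 dim members of the family, 3 rose, and 13 had a positive difference, as had 6383 of all 9965 dim genes; the median was 0.15. In 7 of the 16 all deleted values lay above all control values, as they did in 10.3% of all dim genes. They include Slc6a20a and Slc6a20b, related neighbours on chromosome 9, with differences of 0.17 and 0.19 (adjusted p = 0.059 and 0.064, limma). How far each of their probe sets also reads the other transcript was not tested. Slc6a21, for which no role is given here, and Slc6a19, a neutral amino acid carrier of gut and kidney, differed by 0.17 and 0.18. These values stand beside a median of 0.05 over all dim genes and of -0.04 over all 9973 bright genes, a shift of dim against bright genes that runs through the whole array. Under the 3 other scalings the median of the dim Slc6 members was 0.13 to 0.18 and that of all dim genes 0.03 to 0.08.

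Of the 4 proton-coupled Slc36 carriers, 1 rose and none fell (25% called, beside 11.1% of all genes). Slc36a2 (PAT2), which carries glycine, proline and alanine, read 8.29, 8.52, 8.40 and 8.49 in deleted uteri, against 8.16, 7.97, 7.68 and 7.65 in controls. The deleted uteri all lay above the controls, by 0.56 on average (SE 0.11, 1.47-fold, adjusted p = 0.022, limma). The lysosomal carrier Slc36a1 read 9.45 to 9.69 in deleted uteri and 9.59 to 9.67 in controls, and Slc36a4 differed by -0.12.

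Of the 11 Slc38 carriers, 1 rose and none fell (9.09% called, beside 11.1% of all genes). Slc38a1 (SNAT1), a sodium-coupled carrier of glutamine and other neutral amino acids, read 11.33, 10.88, 11.30 and 10.87 in deleted uteri, against 10.56, 10.51, 10.54 and 10.53 in controls. The deleted uteri formed a higher pair, replicates 1 and 3, and a lower pair, replicates 2 and 4, both above the controls. The difference was 0.56 (SE 0.11, 1.47-fold, adjusted p = 0.0194, limma). A further, dimmer Slc38a1 probe set gave 0.58 (SE 0.14), with the same split into pairs. Slc38a2 (SNAT2), a related carrier induced by amino acid shortage, read 11.90 to 12.10 in deleted uteri and 11.83 to 12.04 in controls (difference 0.07, SE 0.07, adjusted p = 0.48, limma). Slc38a9, the lysosomal carrier that reports arginine to mTORC1, differed by -0.11 (adjusted p = 0.35), and by 0.02 on a further probe set. Slc38a11 just missed the threshold and was not called, with 7.33 to 7.63 in deleted uteri and 7.62 to 7.91 in controls (difference -0.29, SE 0.08, adjusted p = 0.051, limma). Both Slc36a2 and Slc38a1 missed the threshold when any of control replicates 2, 3 and 4 was left out (highest adjusted p 0.0661 and 0.0642).

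None of the 7 Slc1, 2 Slc3 and 3 Slc43 members was called by limma, where 11.1% of all genes were called. Of these members, 2, 1 and 0 had an unadjusted p under 0.05. Slc1a1 (EAAT3), the sodium-coupled carrier of glutamate, aspartate and cysteine in epithelia, came nearest in size. It read 9.70, 10.97, 10.16 and 10.69 in deleted uteri, against 11.05, 11.16, 11.06 and 11.08 in controls. All deleted uteri lay below the controls, but replicate 2 by less than 0.1 and replicate 1 by more than 1. The difference was -0.71 (SE 0.24, adjusted p = 0.083, limma), and -0.90 without replicate 2 (adjusted p = 0.0204). The neutral exchangers Slc1a4 (ASCT1) and Slc1a5 (ASCT2), which take up serine, alanine and, for Slc1a5, glutamine, differed by 0.05 and -0.05. Slc1a5 was spread in deleted uteri, from 11.11 to 11.83, against 11.35 to 11.49 in controls. The glial glutamate carriers Slc1a2 and Slc1a3 differed by 0.04 and 0.05. In the Slc43 family, the system L facilitators Slc43a1 and Slc43a2 differed by -0.05 and 0.17. Slc43a3, a purine nucleobase carrier, read 10.42 to 11.30 in deleted uteri and 11.12 to 11.40 in controls (difference -0.31, SE 0.17, adjusted p = 0.25, limma).

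**Figure D3:**
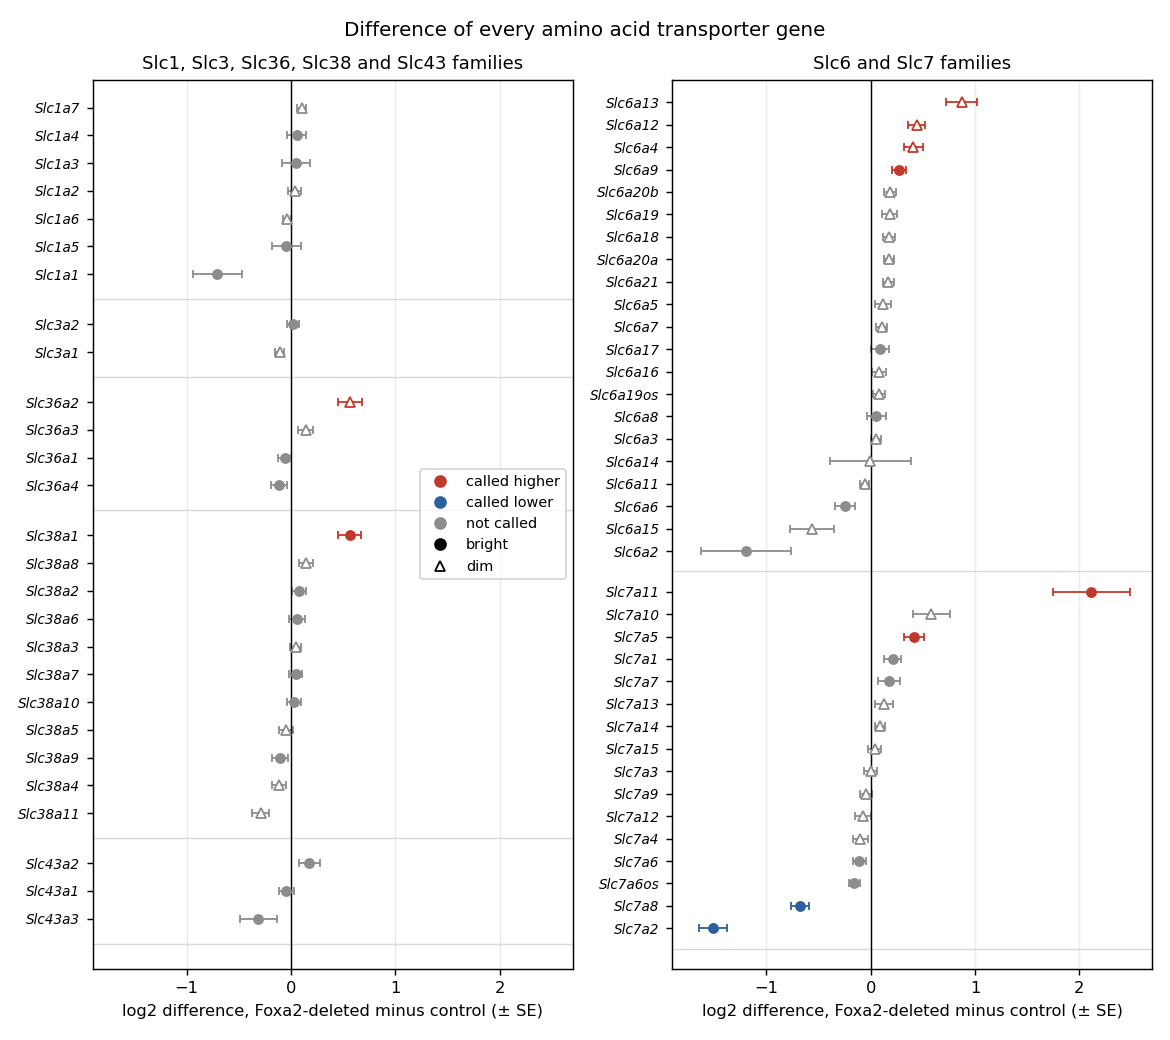
Log2 difference of all 64 members, Foxa2-deleted minus control, with its SE from limma, grouped by family; red, called higher; blue, called lower; grey, not called; filled circles, bright; open triangles, dim. The differences run from -1.51 (Slc7a2) to 2.12 (Slc7a11), both in the Slc7 family.

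The members were divided by signal at the median over all genes, a mean log2 intensity of 8.63 over the 8 arrays, into 29 bright and 35 dim genes. The nearest members on either side were Slc1a3 at 8.69 and Slc7a10 at 8.43. Signal depends on the probes as well as on the transcript, so that bright does not mean abundant. Of the bright members 4 rose and 2 fell (20.7%), where 14% of all bright genes were called. Of the dim members 4 rose and none fell (11.4%), where 8.19% of all dim genes were called. The mean over 8 arrays includes the change itself, and Slc7a11 passed the border only through its deleted arrays. With the border set on the control arrays alone, Slc7a11 was the 1 member to change class. The calls were then 5 of 28 bright members (13.9% of all bright genes) and 5 of 36 dim members (8.22% of all dim genes), and the 4 members called with a change of at least 1.5-fold were 2 bright and 2 dim ones. The median difference was 0.03 over the bright members, beside -0.04 over all bright genes. It was 0.08 over the dim members, beside 0.05 over all dim genes. By family, 4 of 8 bright and 0 of 8 dim Slc7 members were called by limma (1 of the dim ones had an unadjusted p under 0.05), or 3 of 7 and 1 of 9 with the border on the control arrays, and in Slc6 it was 1 of 5 bright and 3 of 16 dim members. Whether families or classes of signal differ in these shares was not tested.

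**Figure D4:**
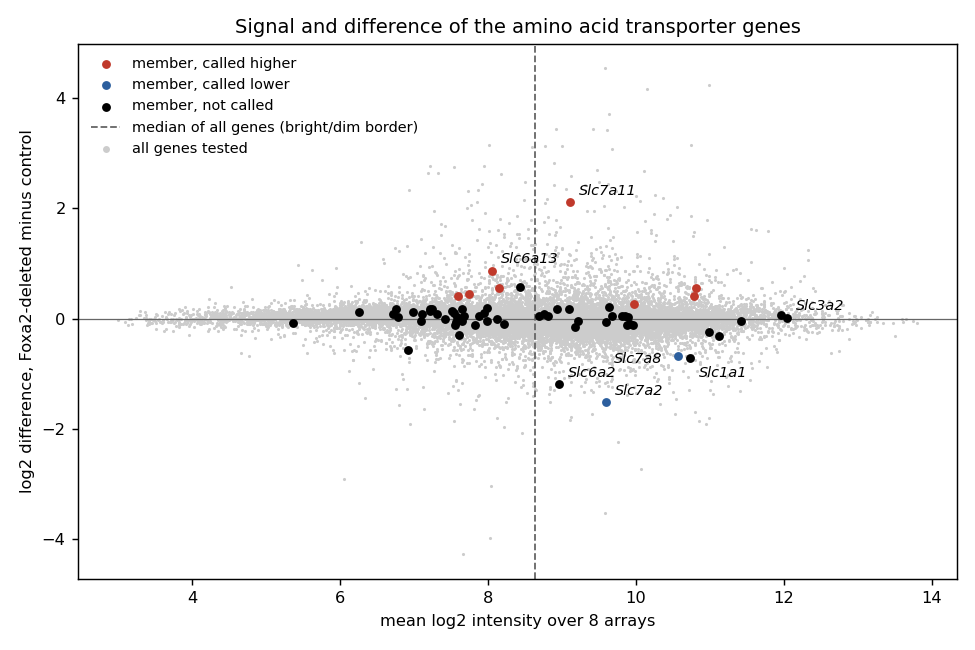
Log2 difference (Foxa2-deleted minus control) against mean log2 intensity over 8 arrays for all 19938 genes (grey) and the 64 members; the dashed line is the bright/dim border at 8.63. Slc7a11 and Slc7a2 lie farthest from 0 among the members, both to the right of the border, Slc7a11 only through its deleted arrays.

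The spread between animals differed with signal, among the members as over the whole array. The SD was larger among deleted uteri than among controls in 47 of the 64 members (73.4%), and in 70.3% of all genes. It was larger in 26 of 29 bright members (89.7%, beside 81.3% of all bright genes), where the median SD was 0.17 in deleted uteri and 0.07 in controls, and in 21 of 35 dim members (60%, beside 59.4% of all dim genes), where it was 0.09 in deleted uteri and 0.08 in controls. The 8 members called higher lay on average 0.65, 0.59, 0.78 and 0.81 above the control mean in deleted replicates 1 to 4, and the 2 called lower lay at -0.96, -0.97, -1.25 and -1.20. Such agreement between the 4 uteri is part of what a call requires.

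Promoter composition was set beside signal, with no test. Promoter windows were matched for 47 members. The median ratio of observed to expected CpG, which is near 1 where CpG sites have not been depleted, was 0.68 over 21 bright and 0.38 over 26 dim members, and 0.38 over 27025 genes. A ratio of at least 0.6 was found for 14 bright and 7 dim members. Median GC content was 60.4% in the bright and 54.8% in the dim members. This is a description of the genes and does not bear on genotype.

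Genes that act with the carriers were followed through lists. Of 26 measured genes of the amino acid response led by ATF4, 3 rose and 4 fell, with a median difference of 0.03, beside 11.1% called among all genes. The tryptophan tRNA synthetase gene Wars fell by 0.64 (SE 0.05, adjusted p = 3.8e-04) and the cysteine-forming enzyme gene Cth by 0.69 (SE 0.13, adjusted p = 0.0172, limma). The serine synthesis gene Psat1 rose by 0.68 (SE 0.13, adjusted p = 0.0175). Named after their values were seen, Nupr1, a stress-induced chromatin factor gene, and Stc2, which encodes the secreted glycoprotein stanniocalcin-2, rose by 0.80 and 1.15, while Atf3, a stress-induced factor gene, and Eif2ak4, which encodes the amino acid sensor kinase GCN2, fell by 0.45 and 0.32. Common markers of the response, also picked with their values seen, were not called: Asns, Chac1, Trib3 and Atf4 itself differed by -0.33, 0.28, 0.14 and 0.05. In Chac1 and Trib3 all deleted values lay above all control values, while in Asns and Atf4 the groups overlapped. An unadjusted p under 0.05 (limma) was found for 13 of the 26 genes and for 6272 of all 19938 genes. Genes of this list thus moved in both directions.

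Of 30 genes of amino acid sensing by mTORC1, none rose, 2 fell and 28 were not called (6.67% called, beside 11.1% of all genes). Of the 30, 26 were bright, and the median over the 30 was -0.05, beside -0.04 over all bright genes. The 2 that fell were the kinase gene Mtor (difference -0.29, SE 0.06, adjusted p = 0.027) and its inhibitor Tsc1 (difference -0.33, SE 0.06, adjusted p = 0.0124, limma). An unadjusted p under 0.05 was found for 9 of the 30 and for 6272 of all 19938 genes. A list of other amino acid and peptide carriers held 21 measured genes. The peptide carrier Slc15a1 (PEPT1) rose by 0.41 (SE 0.08, adjusted p = 0.021, limma). The lysosomal carrier Slc15a4 fell by 0.20 (SE 0.04, adjusted p = 0.025, limma), and 19 were not called. The 19 include Slc7a6os, which is not a transporter and is also 1 of the 64 members.

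Markers of several cell types moved with the genotype, and their part in the transporter differences was not tested. In whole tissue, fewer cells of a type and less RNA per cell cannot be told apart. Of 9 luminal and pan-epithelial markers 6 rose and none fell, and their mean lay between 10.58 and 11.65 on the deleted arrays and between 9.98 and 10.15 on control arrays. Of 8 gland markers 5 fell, with means of 7.12 to 7.40 in deleted uteri and 8.42 to 9.02 in controls. The 8 include Foxa2, the deleted gene itself, which is 1 of the 5. Prss29, Wfdc3 and Lif were not called and differed by -0.855, 0.04 and 0.12. Of 10 endothelial markers 7 fell (9.65 to 10.33 in deleted uteri, 10.63 to 10.72 in controls), and of 10 NK and T cell markers 7 fell (7.91 to 8.37 in deleted uteri, 8.76 to 9 in controls). The T cell markers Cd8a, Cd3e and Cd3g were not among those 7 and differed by 0.155, 0.17 and -0.08. Of 9 macrophage and neutrophil markers 1 rose (8.83 to 9.68 in deleted uteri, 8.54 to 8.87 in controls), of 8 smooth muscle markers 1 rose (11.69 to 12.25 in deleted uteri, 11.65 to 11.81 in controls), and of 9 stromal markers 1 fell (11.22 to 11.68 in deleted uteri, 11.68 to 11.70 in controls). None of 5 neuronal and glial, 5 mesothelial, oviductal and ovarian markers and 1 blood marker was called by limma, with 2, 0 and 0 at an unadjusted p under 0.05. By the mean over 8 arrays, the luminal, stromal and muscle markers of the uterus were all bright, and the gland markers were all dim. That mean includes the change itself. In controls, Cxcl15, Spink1 and Foxa2 averaged 10.02, 9.805 and 8.725, above the border of 8.63, and the other gland markers averaged below it.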

How the data were processed

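Whole uteri of 8 mice were measured on 1 array each. The authors deposited log2 intensities made with RMA, per the submitters' processing notes, which also name limma; the sources used here do not give versions, genome build or probe annotation. No detection calls come with the values, and RMA understates fold changes of dim genes; the number of arrays limits the precision. Of 35556 probe sets, 21789 had 1 gene symbol in GEO's platform annotation, 1621 several and 12146 none; only the first kind was used. The brightest probe set over the 8 arrays stood for a gene, which left 19938 genes. Foxa2-deleted and control uteri, grouped by their titles, were compared with lmFit and eBayes in limma 3.58.1 (R 4.3.3), without covariates, and p-values were adjusted by Benjamini-Hochberg over all genes. The steps were tested on simulated data. Replicate numbers did not pair the animals: same-numbered deviations correlated at -0.05 to 0.06. Promoters and gene order came from RefSeq tables of GRCm38.p6. By rule, statistics are given for called members, uncalled ones differing by at least 0.5, and heavy and light chains. Of each gene list, the rule took up to 3 called genes with the smallest adjusted p. Outside this rule, some other uncalled members, such as Slc7a1 and Slc38a11, and list genes named after their values were seen are also given with statistics. Members and lists were chosen with earlier results of these data known.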

Additional observations from a re-analysis of the deposited data

Results flagged for a closer look

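Outlying values were sought in 44 groups of 4 uteri, 1 per genotype for each member given with statistics by the rule above. The gap between an extreme value and its neighbour was compared with the group's range, and 3 groups stood out. Chance alone flags about 5% of groups. Slc7a5 read 11.28 in Foxa2-deleted replicate 3, against 10.86 to 10.93 in the other deleted uteri (gap 0.833 of the range). Slc3a2, its heavy chain, read 12.18 in the same uterus, against 12 to 12.03 in the others (0.833 of the range). Slc3a1 read 7.66 in control replicate 2, against 7.58 to 7.59 in the other controls (0.875 of the range).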

How the results depend on the processing

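Slc6a13, Slc7a11, Slc7a2 and Slc7a8 kept their calls under every alternative tried in which they were tested, and the 10 called members lost no call under 3 other scalings, another choice of probe sets, trended and robust variances or array weights. Without 1 array at a time, the number of genes called ranged from 556 to 3059, of members called higher from 2 to 11, of members called lower from 2 to 5 and of members changed at least 1.5-fold from 4 to 7. Bright members called then ranged from 3 to 8 and dim ones from 1 to 8; by family, Slc1 from 0 to 1, Slc6 from 1 to 7, Slc36 from 0 to 2 and Slc38 from 0 to 2. The count over all genes was 556 to 618 without control replicate 2, 3 or 4, and 1069 and 1111 without Foxa2-deleted replicate 1 and control replicate 1; most members called higher were found without Foxa2-deleted replicate 4 and fewest without control replicate 4. With the replicate number as a block, which does not pair animals here, 1062 genes were called, with 4 members higher, 2 dim members, 2 of Slc6 and 0 of Slc36; Slc36a2, Slc6a4, Slc6a9 and Slc7a5 lost their calls (adjusted p 0.0565 to 0.0748). With the bright border at the 75th percentile of signal, 4 bright and 6 dim members were called. With array weights 7 dim members, 7 of Slc6 and 1 of Slc1 were called. With the lower 50% of genes left out, fewer members were tested and 4 were called higher, 1 of Slc6 and 0 of Slc36. Slc38 had 2 calls with cyclic loess, with the dimmest 25% of genes left out and with trended variances. Signs turned only for differences near 0: Slc3a2 was at -0.0002956 with array weights and from -0.025 to 0.0425 without 1 array, and Slc7a9 from -0.0725 to 0.0042. The cause of these changes was not tested.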

Other observations

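Genes that use the carried amino acids were also measured. Of 26 genes of amino acid metabolism, 3 rose and 2 fell, beside 4.5% and 6.58% of all genes. Arg1, the arginase that splits arginine into ornithine and urea, averaged 10.33 ± 0.99 in deleted uteri and 7.20 ± 0.07 in controls (SD, n = 4 each; difference 3.13, adjusted p = 0.0048, limma), in the same uteri in which the arginine carrier Slc7a2 fell. Glul, which encodes glutamine synthetase, averaged 11.38 ± 0.22 in deleted uteri and 12.01 ± 0.03 in controls (SD, n = 4 each; difference -0.63, adjusted p = 0.0101, limma), while the glutamine carrier Slc38a1 rose. Tdo2, which opens the ring of tryptophan, fell by 1.16 (adjusted p = 0.0088). Named after their values were seen, Bcat1, the cytosolic branched-chain aminotransferase, and Got1, the cytosolic aspartate aminotransferase, rose by 0.89 and 0.39 (adjusted p = 0.0158 and 0.0151, limma).

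Another list held 6 enzymes and receptors of amines and amino acids that members carry. Gabrp, a GABA receptor subunit gene, rose by 3.13 (adjusted p = 0.0112, limma). The monoamine oxidase genes Maob and Maoa fell by 1.92 and 0.71 (adjusted p = 0.0162 and 0.039, limma). The other 3, the glutamate receptor genes Gria3 and Grin2c and the glycine receptor gene Glra1, were not called. Over all genes 11.1% were called. No relation between these genes and the carriers was tested.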
